A study of Mus musculus with 12 samples.

Results

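The mitochondrial genome is a small circle of DNA, separate from the chromosomes, that encodes proteins of the respiratory chain. The RNAs of 10 of these genes were described in cultured mouse T cells given metformin, FK506 (tacrolimus) or both drugs. They were ND1, ND2, ND4 and ND5 of complex I, CYTB of complex III, COX1, COX2 and COX3 of complex IV, and ATP6 and ATP8 of complex V. The members were the rows of the deposited table with these symbols, and all 10 were found among its 45777 genes and passed the filter on low values that left 15197 genes for testing. The members were chosen by name, with the measured differences of these genes between the 4 treatments in view. Their differences between treatments are therefore given as description, without p-values.

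Splenic CD4+ T cells of wild-type C57BL/6 mice, 7 weeks old by the sample labels, were stimulated with anti-CD3 at 0.5 µg/ml for 3 days. Every group received this stimulus: the Control group received no drug, and the others received metformin, FK506, or metformin and FK506 together (Metformin+FK506). Poly(A) RNA of 3 samples per group was sequenced. The methods section gives a somewhat older age for the mice and also lists anti-CD28, and the drug doses of these cultures are not given in the sources used here. Metformin is a drug for diabetes known to inhibit complex I, and FK506 is an immunosuppressant that blocks the phosphatase calcineurin, which T cells need to activate NFAT.

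Between 43402632 and 64290105 reads were counted per sample, and the lowest count of any of the 10 genes in any sample was 12326. Genes that mark T cells were expressed in every group, and the summed FPKM of 10 such markers lay between 2080 and 2123 in Control, 2014 and 2094 with metformin, 1804 and 1901 under FK506, and 1954 and 2030 for both drugs. The samples of both FK506 groups lay below every Control sample. Under FK506 alone 6 of the 10 were called lower and 4 higher, beside 39.6% and 41.3% of all genes tested. Genes that mark B cells and myeloid cells were higher in the FK506 cultures: the summed FPKM of 10 B cell markers lay between 62.9 and 66.9 in Control, 87.2 and 102 with metformin, 886 and 926 with FK506, and 427 and 458 with both drugs. The corresponding ranges for 10 myeloid markers were 6.52 to 6.69, 8.98 to 10.2, 1367 to 1419, and 925 to 1046, with the defining markers C1qa, C1qc and Adgre1 at 0 in every Control sample. With metformin alone 8 of the 10 B cell markers were called higher and 1 lower, beside 28.6% and 27.4% of all genes tested. Of 5 markers of CD8 T cells and NK cells, 3 were tested and all 3 were called higher with metformin, beside the same 28.6%. The summed FPKM of the 5 was 10.2 to 10.7 in Control, with Klrb1c at 0 in every sample, 17.7 to 18.5 with metformin, 20.6 to 21.4 under FK506 and 20.0 to 21.3 for both drugs. Under FK506 that sum was mostly Eomes, which rose from 1.22 to 13.6 FPKM, whereas Cd8b1 was called lower (-0.75) and Cd8a was not called (0.12). For both drugs against Control Eomes (3.09) and Cd8a (0.32) were called higher and Cd8b1 lower (-0.56). Every comparison below between groups came with changes in some of these markers, whose part in the fold changes was not tested. In such bulk samples fewer cells of a type and less RNA per cell cannot be told apart.

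As background, both strands of the mitochondrial genome are copied from end to end into long RNAs by the polymerase POLRMT with the factors TFAM and TFB2M. Most genes are separated by tRNAs, and cutting the tRNAs out releases the messenger RNAs, so that genes copied together can still reach different levels through processing and decay. The proteins are the membrane core of complexes whose other subunits come from the nucleus. Complexes I, III and IV pump protons, and complex V uses the gradient to make ATP.

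On the mm10 assembly the 10 genes all lie on the same strand of the mitochondrial chromosome, in the order ND1 (chrM:2751-3707), ND2 (chrM:3914-4951), COX1 (chrM:5328-6872), COX2 (chrM:7013-7696), ATP8 (chrM:7766-7969), ATP6 (chrM:7927-8607), COX3 (chrM:8607-9390), ND4 (chrM:10167-11544), ND5 (chrM:11742-13565) and CYTB (chrM:14145-15288), by the RefSeq annotation. None has an intron, and each interval is almost wholly coding sequence. ATP8 and ATP6 share 43 bases, read in different frames, and are carried on the same messenger RNA, so reads from the overlap cannot be assigned to either gene. The whole ATP8 sequence and the first 90 bases of ATP6 are shown for that reason, with the shared bases in capitals (mm10, plus strand).
ATP8 (chrM:7766-7969): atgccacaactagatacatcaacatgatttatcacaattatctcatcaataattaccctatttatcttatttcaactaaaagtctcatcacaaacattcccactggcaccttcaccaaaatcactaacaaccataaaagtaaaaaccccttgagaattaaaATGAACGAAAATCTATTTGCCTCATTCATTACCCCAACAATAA
ATP6 (chrM:7927-8016): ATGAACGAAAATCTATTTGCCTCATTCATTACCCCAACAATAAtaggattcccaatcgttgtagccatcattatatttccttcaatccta

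The gene ends differ in a way that bears on poly(A) RNA. COX3, ND4 and CYTB have lengths of 784, 1378 and 1144 bases, which leave 1 base over when divided into codons. Their frames end on a lone T that the poly(A) tail completes to a stop codon. The last 30 bases of each are shown with that T in capitals, followed by COX1 and ATP6, which carry a complete TAA stop in the genome (capitals).
COX3 (chrM:9361-9390): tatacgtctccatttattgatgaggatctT
ND4 (chrM:11515-11544): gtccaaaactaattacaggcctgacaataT
CYTB (chrM:15259-15288): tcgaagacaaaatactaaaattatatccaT
COX1 (chrM:6843-6872): gaggaaccaacctatgtaaaagtaaaaTAA
ATP6 (chrM:8578-8607): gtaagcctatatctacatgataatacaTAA
Among the genes with an incomplete stop, the log2 fold changes with FK506 against Control were 1.36 for CYTB, 1.19 for ND4 and 0.36 for COX3. Among the other members, whose lengths are whole numbers of codons, they ran from -0.19 for ATP8 to 1.08 for ND5. A part of the gene ends in these values was not tested.

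Levels are given as FPKM, the fragments counted for a gene divided by its length and by the library's total, which allows genes to be compared per length. Fold changes come from the counts after TMM scaling, and are called where the Benjamini-Hochberg adjusted p of edgeR's quasi-likelihood test was under 0.05. Ratios of FPKM between an FK506 group and Control are larger than these fold changes, because TMM scales the FK506 libraries down. For CYTB with FK506, the FPKM ratio was 2.99 and the fitted fold 2.57.

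The 10 genes together took a larger share of the counted reads in each drug group than in Control. The share was 1.69%, 1.67% and 1.7% in the Control samples, 2.81%, 2.74% and 2.76% with metformin, 2.65%, 2.46% and 2.53% with FK506, and 2.71%, 2.99% and 2.78% with both drugs. No drug-treated sample overlapped Control, whereas the metformin and Metformin+FK506 samples overlapped each other. The corresponding means were 1.68% ± 0.0166, 2.77% ± 0.0398, 2.55% ± 0.0946 and 2.83% ± 0.144 (SD, n = 3).

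All 10 genes were called higher with metformin than in Control, and none lower. Over all genes tested, 56.0% were called in this comparison, 28.6% higher. The log2 fold changes ran from 0.43 to 0.89 with a median of 0.71, against a median of 0.01 over all genes tested. With FK506, 7 of the 10 were called higher and none lower (2 lower without the filter on low values, and 1 lower in a fit of these groups alone), beside 80.9% of all genes called and 41.3% called higher. The median was 0.57 against 0.02 over all genes, but the range was far wider, from -0.19 for ATP8 to 1.36 for CYTB. With both drugs, 9 of 10 were called higher than in Control and none lower, beside 81.7% called and 42.1% called higher, with a median of 0.67 against 0.03. Genes called lower made up 27.4% of all genes with metformin, 39.6% with FK506 and 39.6% with both drugs. In FPKM the samples did not overlap Control for 10 of the 10 genes with metformin, 9 with FK506 and 9 with both drugs, in each case higher, beside 65.0%, 84.4% and 82.0% of all genes without overlap. These 3 comparisons share the Control samples. At an unadjusted p under 0.05 and by DESeq2, the members called lower likewise numbered 0 in each of the 3 comparisons.

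**Figure D1:**
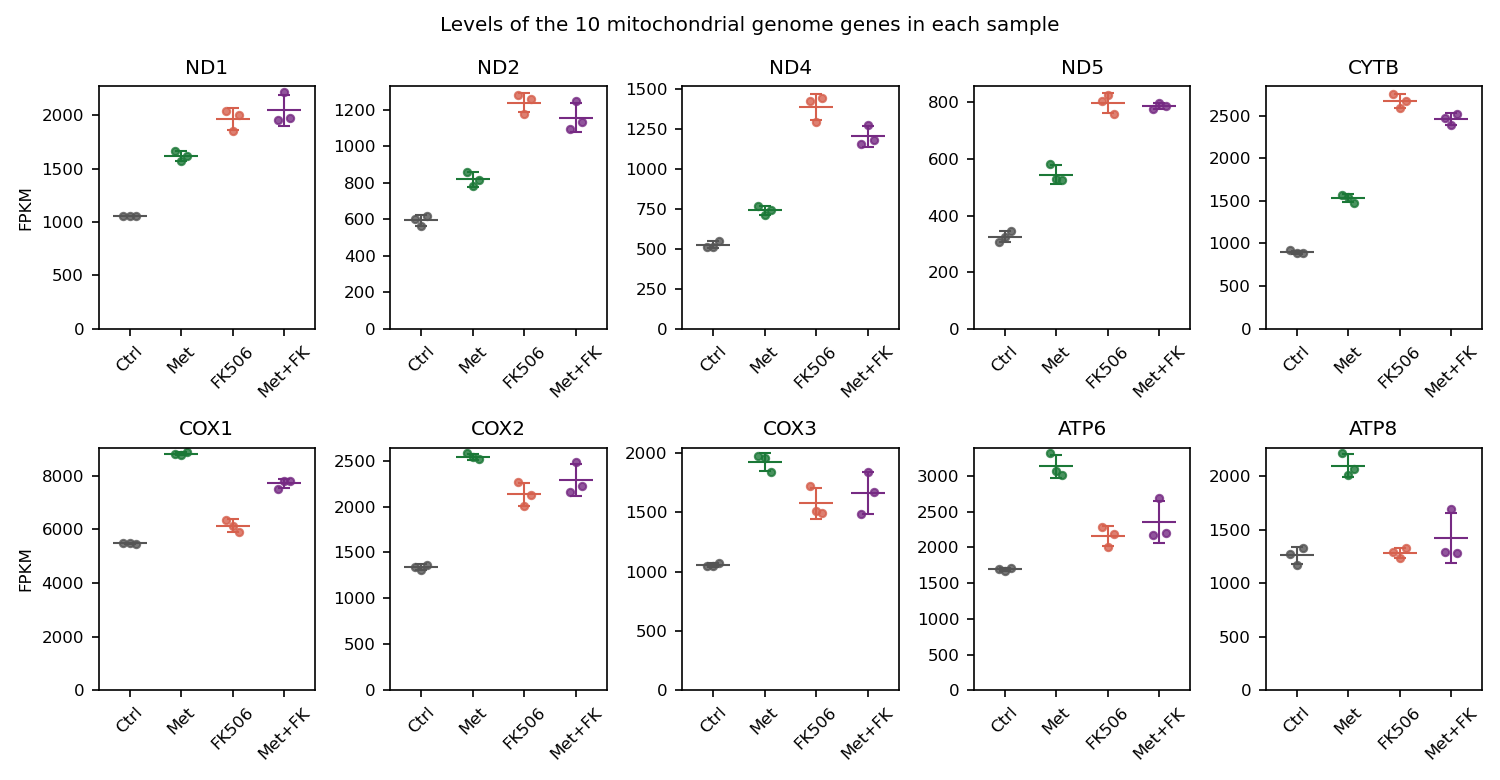
FPKM of each of the 10 genes in the 12 samples, with the FPKM axis of each panel starting at 0. Points are samples, and the line and bars are the group mean and SD (n = 3). Complex I and CYTB panels are highest in the FK506 groups, whereas the COX and ATP panels are highest with metformin, where COX1 lies between 8773 and 8876.

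CYTB encodes cytochrome b, the subunit of complex III that holds its ubiquinol binding sites, and showed the largest fold change of the 10 genes with FK506. Its FPKM was 918, 883 and 884 in Control, 1567, 1543 and 1478 with metformin, 2753, 2591 and 2670 with FK506, and 2475, 2389 and 2517 with both drugs. The 4 groups did not overlap, and their order was FK506, Metformin+FK506, metformin and Control. The log2 fold change against Control was 1.36 ± 0.036 (standard error) with FK506, 0.74 ± 0.036 with metformin and 1.27 ± 0.036 with both.

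ND4 and ND5 encode proton-pumping subunits of the membrane arm of complex I. The FPKM of ND4 was 511, 514 and 551 in Control, 765, 712 and 745 with metformin, 1425, 1294 and 1443 with FK506, and 1152, 1275 and 1177 with both drugs. Its groups took the same order as those of CYTB, again without overlap. The FPKM of ND5 was 307, 323 and 346 in Control, 583, 528 and 524 with metformin, 806, 826 and 758 with FK506, and 777, 798 and 788 with both drugs. The ND5 samples of the 2 FK506 groups overlapped, and both lay above metformin, which lay above Control. With FK506 the log2 fold change was 1.19 ± 0.055 for ND4 and 1.08 ± 0.051 for ND5, and with metformin it was 0.46 ± 0.054 and 0.71 ± 0.051.

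ND1 and ND2 are also membrane subunits of complex I, ND1 lying next to the site where ubiquinone binds. The FPKM of ND1 was 1059, 1056 and 1056 in Control, 1664, 1572 and 1616 with metformin, 2038, 1851 and 2008 with FK506, and 1960, 2218 and 1973 with both drugs. The FPKM of ND2 was 602, 560 and 617 in Control, 860, 780 and 812 with metformin, 1281, 1177 and 1255 with FK506, and 1095, 1244 and 1129 with both drugs. For both genes the FK506 groups overlapped each other and lay above metformin, which lay above Control. The log2 fold change with FK506 was 0.68 ± 0.053 for ND1 and 0.85 ± 0.058 for ND2.

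COX1, the catalytic subunit of cytochrome c oxidase that holds heme and copper, had the highest FPKM of the 10 genes in every sample. It was at 5492, 5495 and 5441 in Control, 8819, 8773 and 8876 with metformin, 6364, 6132 and 5890 with FK506, and 7504, 7813 and 7813 with both drugs. The order was metformin, Metformin+FK506, FK506 and Control, with no overlap in FPKM. After TMM scaling the difference between FK506 and Control was -0.05 ± 0.036 on the log2 scale and was not called, and it turned positive with library-size, FPKM, quantile or TPM scaling. With metformin it was 0.66 ± 0.036, and 0.00 after quantile normalization.

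COX2 holds the copper center that receives electrons from cytochrome c, and COX3 is the remaining mitochondrial subunit of the enzyme. The FPKM of COX2 was 1347, 1308 and 1367 in Control, 2579, 2538 and 2513 with metformin, 2262, 2005 and 2127 with FK506, and 2163, 2486 and 2223 with both drugs. The FPKM of COX3 was 1049, 1049 and 1076 in Control, 1976, 1956 and 1839 with metformin, 1723, 1507 and 1492 with FK506, and 1483, 1840 and 1668 with both drugs. Every drug-treated sample lay above Control, and metformin was the highest group, although for COX3 it overlapped Metformin+FK506. The log2 fold change of COX2 was 0.89 ± 0.056 with metformin and 0.45 ± 0.055 with FK506, and that of COX3 was 0.83 ± 0.071 and 0.36 ± 0.07.

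ATP6 and ATP8 encode subunits of the membrane part of ATP synthase, ATP6 forming the proton path. The FPKM of ATP6 was 1694, 1673 and 1719 in Control, 3317, 3067 and 3017 with metformin, 2290, 2012 and 2190 with FK506, and 2180, 2691 and 2199 with both drugs. The FPKM of ATP8 was 1275, 1174 and 1334 in Control, 2217, 2011 and 2064 with metformin, 1295, 1236 and 1330 with FK506, and 1291, 1693 and 1286 with both drugs. Metformin alone was the highest group for both genes. FK506 overlapped Control for ATP8 but not for ATP6, and replicate 2 of Metformin+FK506 was the high sample for both. With metformin the log2 fold change was 0.85 ± 0.074 for ATP6 and 0.70 ± 0.089 for ATP8. With FK506 the values were 0.14 ± 0.074 and -0.19 ± 0.089, neither called, and that of ATP8 turned positive with library-size, FPKM, quantile or TPM scaling. On the messenger RNA that carries both, ATP8 counts per ATP6 count were 0.223 ± 0.0113 in Control and 0.201 ± 0.00425 with metformin (SD, n = 3). They were 0.178 ± 0.00789 for FK506 and 0.18 ± 0.00708 for both drugs.

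The pattern along the genome therefore differed between the drugs. With metformin the 10 fold changes stayed within a narrow band, and with FK506 the genes of complexes I and III had the larger fold changes and those of complexes IV and V the smaller. COX1 took 54.3% ± 0.614 of the counts of the 10 genes in Control, 53.3% ± 0.846 with metformin, 40.3% ± 1.02 under FK506 and 46.3% ± 1.02 for both drugs (SD, n = 3). The 4 ND genes together took 18.9% ± 0.432, 17.2% ± 0.437, 27.8% ± 0.6 and 24.3% ± 0.463. CYTB took 6.57% ± 0.149, 6.83% ± 0.162, 13% ± 0.164 and 10.9% ± 0.64. These shares are ratios within a sample, so the scaling of the libraries does not enter them. The ratio of CYTB to COX3 FPKM likewise was between 0.821 and 0.875 in Control, 0.789 and 0.804 with metformin, 1.6 and 1.79 with FK506, and 1.3 and 1.67 with both drugs. It shows an unequal change of the 2 genes and not which of them moved.

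**Figure D2:**
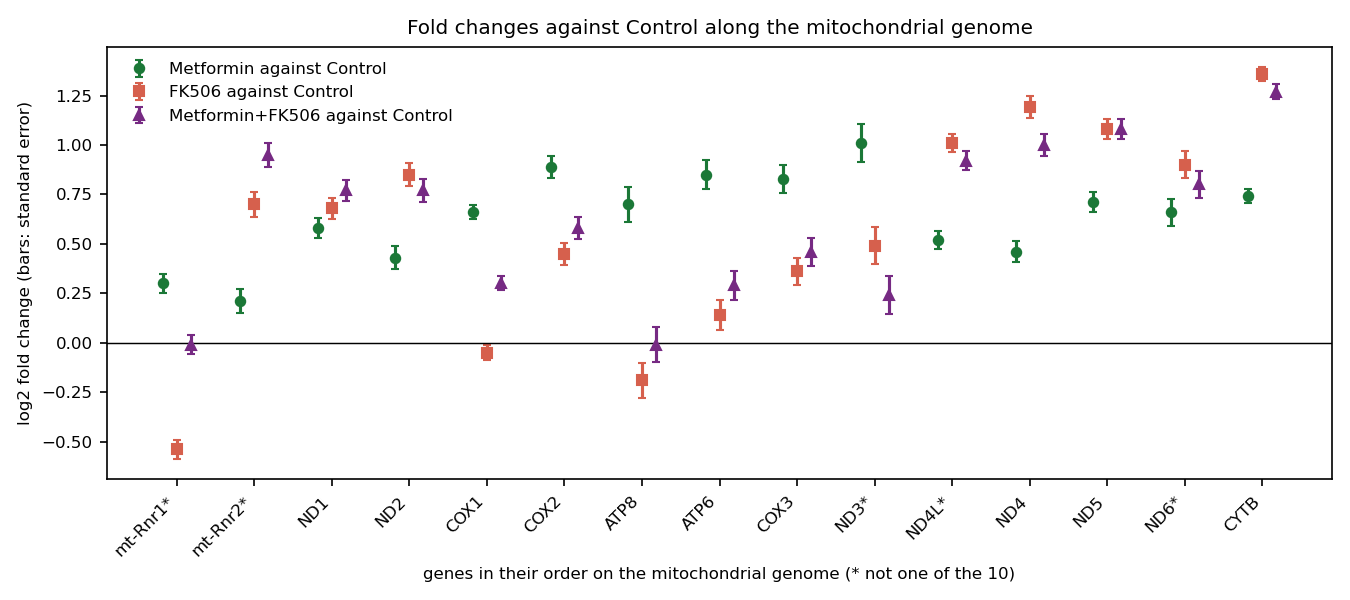
Log2 fold change against Control (vertical axis, bars are standard errors of the fit) for genes in their order on the mitochondrial genome, starred genes not being among the 10. Green circles are metformin, red squares FK506 and purple triangles both drugs. With metformin the 10 genes lie between 0.43 and 0.89, and with FK506 they spread from -0.19 at ATP8 to 1.36 at CYTB.

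The remaining protein genes of the mitochondrial genome, ND3, ND4L and ND6 of complex I, were not among the 10, and their p-values are given. They were listed with earlier results of these data known, so these p-values are not independent evidence. All 3 rose with metformin and all 3 rose with FK506, beside 28.6% and 41.3% of all genes called higher. ND4L, which shares 7 bases and a messenger RNA with ND4, had a log2 fold change of 1.01 ± 0.047 with FK506 (edgeR adjusted p = 4.07e-12) and 0.52 ± 0.047 with metformin (adjusted p = 9.53e-08). Its FPKM was 332, 307 and 312 in Control, 485, 430 and 475 with metformin, 730, 776 and 721 with FK506, and 693, 686 and 670 with both drugs. ND4L thus took the group order of its neighbour ND4. ND6 is the protein gene of the opposite strand, and rose by 0.90 ± 0.068 with FK506 (adjusted p = 2.82e-09) and 0.66 ± 0.069 with metformin (adjusted p = 5.39e-07), from an FPKM of 47.8 ± 2.93 in Control (SD, n = 3). ND6 (chrM:13552-14070) overlaps the end of ND5, and use of strand in counting is not given. Reads of the other strand may therefore be among its counts. ND3 differed from the other complex I genes, with a smaller value for FK506 (0.49 ± 0.094, adjusted p = 0.000171) than for metformin (1.01 ± 0.094, adjusted p = 1.31e-07). Its FPKM was 133, 127 and 143 in Control, 295, 294 and 243 with metformin, 237, 208 and 211 with FK506, and 154, 199 and 190 with both drugs.

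The ribosomal RNAs mt-Rnr1 and mt-Rnr2, which were added after their values had been seen, lie next to each other at the start of the same transcript. Their p-values are therefore a description and not independent evidence. With FK506, mt-Rnr1 fell by 0.54 on the log2 scale (edgeR adjusted p = 3.74e-08) whereas mt-Rnr2 rose by 0.70 ± 0.062 (adjusted p = 2.21e-08). With TPM scaling the mt-Rnr1 value was -0.08 and was no longer called. With metformin both rose, by 0.30 ± 0.049 (adjusted p = 7.25e-05) and 0.21 ± 0.062 (adjusted p = 0.00917), the latter not called without metformin replicate 1. Both are read here from poly(A) RNA, so the values cover only the rRNA that entered the libraries.

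Near-identical copies of mitochondrial genes lie in the nuclear genome, and how shared reads were counted is not given in the sources used here. Annotated nuclear pseudogenes matched COX2, ATP6 and COX3 at 100% identity over nearly the whole gene, ND4 at 100% over 876 bases, COX1 at 97.6%, ND2 at 96.7% over 510 bases, CYTB at 92.9% and ND5 at 92.3% over 1058 bases. Of the genes outside the 10, ND4L matched at 100%, ND3 at 99.7% and ND6 at 93.6%. ATP8 and ND1 had their best matches at 81.4% and 76.6%. The levels of the closely matched genes are uncertain to that extent. The search covered annotated transcripts only, so a closer copy of ATP8 or ND1 outside them would have been missed. For ATP8 and ND1 the log2 fold changes with metformin were 0.70 ± 0.089 and 0.58 ± 0.053. With FK506 they were -0.19 ± 0.089, not called, and 0.68 ± 0.053.

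The comparison of Metformin+FK506 with FK506 asks what metformin added in the presence of FK506. Of the 10 genes, 1 was called higher (COX1) and 1 lower (ND4), beside 30.7% of all genes called, 15.6% higher and 15.0% lower. At an unadjusted p under 0.05, 2 were higher and 2 lower. The count of lower members was 2 by DESeq2, with RLE or library-size scaling, with scaling factors computed without mitochondrial genome genes, with no filter and on FPKM, and after quantile normalization 3 were called higher and 1 lower. The log2 fold change was 0.36 ± 0.036 for COX1 and -0.18 ± 0.054 for ND4, and those of the other 8 ran from -0.10 for CYTB to 0.17 for ATP8. After quantile normalization COX1 was at 0.00 and ND4 at -0.05. In FPKM, COX1 did not overlap above and ND4 and CYTB below, 3 of the 10 genes, beside 38.6% of all genes that did not overlap. The median of the 10 was 0.10, and 0.01 without replicate 2 of Metformin+FK506. ND3, ND4L and ND6 had values of -0.24, -0.10 and -0.10 and were not called (edgeR adjusted p = 0.0587, 0.127 and 0.264). At an unadjusted p under 0.05, 1 of these 3 was lower, and DESeq2 likewise called 1 lower. ND3 was called lower by DESeq2 (-0.26), with RLE (-0.26) or library-size scaling (-0.25), with a mean FPKM of at least 1 required (-0.24), and without replicate 3 of Metformin (-0.24) or replicate 2 of Metformin+FK506 (-0.34).

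The comparison of Metformin+FK506 with metformin asks what FK506 added. The genes divided by complex: ND1, ND2, ND4, ND5 and CYTB were called higher with both drugs, and COX1, COX2, COX3, ATP6 and ATP8 lower, beside 78.2% of all genes called, 40.3% higher and 37.9% lower. In FPKM 9 of the 10 did not overlap, the exception being COX3, and 78.2% of all genes did not overlap either. The higher values ran from 0.18 ± 0.053 for ND1 to 0.54 ± 0.054 for ND4. The lower values ran from -0.31 ± 0.055 for COX2 to -0.72 ± 0.089 for ATP8, but those of COX1, COX2 and COX3 turned positive with TPM scaling and all 5 turned positive after quantile normalization. Among the genes outside the 10, ND4L rose (0.40 ± 0.046, edgeR adjusted p = 6.15e-07), ND3 fell by 0.77 (adjusted p = 1.1e-06), and ND6 was not called (0.14 ± 0.067, adjusted p = 0.0633). ND6 was called higher by DESeq2 (0.15), with a mean FPKM of at least 1 required (0.16) and with library-size (0.32), FPKM (0.30), quantile (0.37) or TPM scaling (0.62). It was also called without replicate 2 of FK506 (0.15), replicate 3 of FK506 (0.15) or replicate 2 of Metformin+FK506 (0.20).

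The interaction of metformin and FK506 is the log2 fold change of metformin with FK506 minus that without it. It was called for all 10 genes, in each case below 0, beside 46.5% of all genes called and 24.0% called below 0. The median was -0.68 against -0.02 over all genes. The values ran from -0.84 ± 0.05 for CYTB to -0.30 ± 0.051 for COX1, which was at 0.00 after quantile normalization. The other protein genes of the mitochondrial genome also lay below 0: -1.26 ± 0.13 for ND3 (edgeR adjusted p = 9.42e-07), -0.61 ± 0.065 for ND4L (adjusted p = 1.1e-06) and -0.76 ± 0.096 for ND6 (adjusted p = 6.78e-06). The ribosomal RNAs did not: the interaction was 0.22 ± 0.07 for mt-Rnr1, called, and 0.04 ± 0.087 for mt-Rnr2, not called. Metformin+FK506 lay above FK506 by 0.52 ± 0.05 for mt-Rnr1 and 0.25 ± 0.061 for mt-Rnr2, both called.

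Nuclear genes encode the partner subunits of the same complexes, and these mostly moved the other way. Of 76 nuclear subunits of complexes I to V, 68 fell and 2 rose with FK506, beside 39.6% and 41.3% of all genes, with a median log2 fold change of -0.62. With TPM scaling, under which the median of all genes was 0.42, 42 fell and 14 rose. With metformin 45 fell and 6 rose, beside 27.4% and 28.6%, with a median of -0.19. After quantile normalization the metformin counts were 17 lower and 11 higher. In complex I, 30 of 36 nuclear subunits fell with FK506, and in complexes III, IV and V 9 of 9, 10 of 11 and 16 of 16 fell. Of the 4 subunits of complex II, which has none encoded in mitochondria, 3 fell and 1 rose with FK506, and 2 fell and 1 rose with metformin. The level of Ndufv3, a complex I subunit, was 96.4 FPKM in Control, 51.2 with metformin and 34.6 with FK506. It fell by 1.58 with FK506 and by 0.65 with metformin on the log2 scale (edgeR adjusted p = 1.54e-15 and 5.45e-10). Among the others, Ndufc2 of complex I fell by 1.49 (adjusted p = 8.98e-12), Uqcrq of complex III by 1.25 (2.24e-11), Cox7c of complex IV by 1.46 (8.8e-14), and Atp5g2 and Atp5b of complex V by 1.52 (6.76e-13) and 1.08 (3.13e-13) with FK506. With metformin Cox7c rose by 0.27 (adjusted p = 0.000155), as did Ndufa6 of complex I by 0.41 (2.64e-06) and Uqcrh of complex III by 0.37 (9.22e-06). The subunit of complex II that rose was Sdha, its flavoprotein, by 0.14 with FK506 (adjusted p = 0.0025) and 0.16 with metformin (0.00143).

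**Figure D3:**
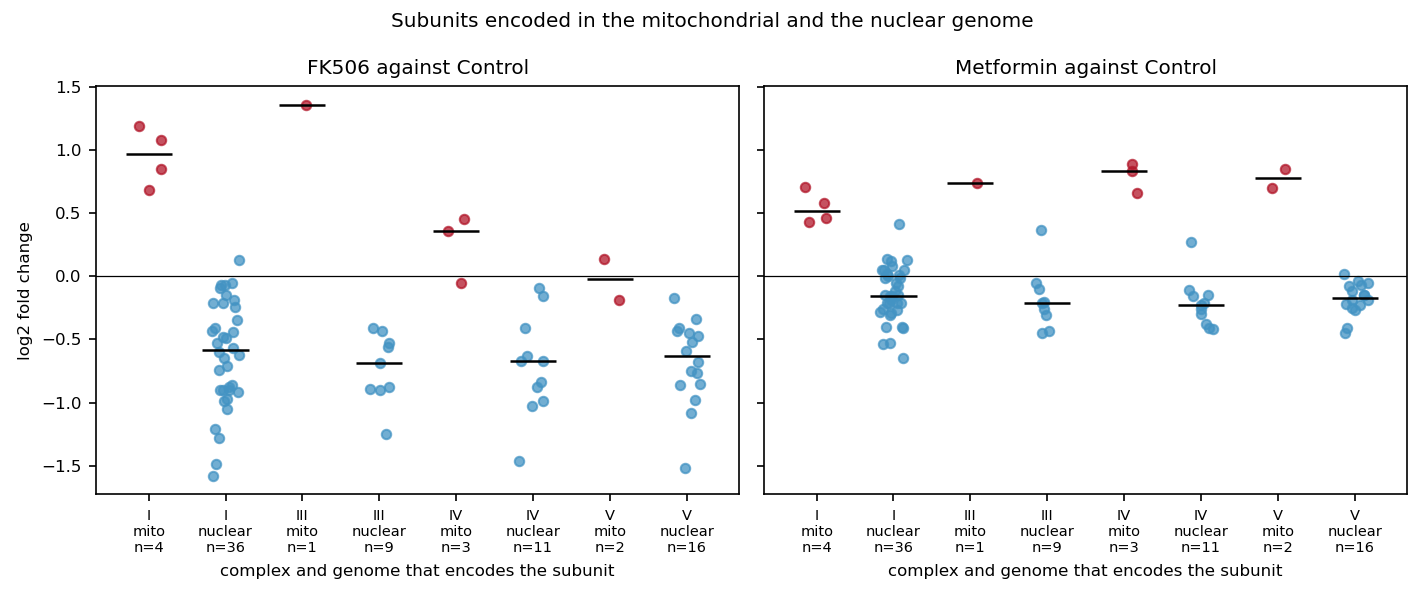
Log2 fold change of subunits encoded in the mitochondrial genome (red, the 10 genes) and in the nucleus (blue) for complexes I, III, IV and V, with FK506 on the left and metformin on the right. Each point is a gene and the black line is the median. Nuclear medians are -0.58, -0.69, -0.67 and -0.63 with FK506, below those of the mitochondrial genes in each complex.

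The ratio of the median FPKM of the mitochondrial members to the median FPKM of the nuclear subunits describes this divergence on a per-length scale. For complex I it was 10.9 ± 0.648 in Control, 16.7 ± 1.12 with metformin, 35.8 ± 1.65 under FK506 and 32.5 ± 1.49 with both drugs (SD, n = 3). For complex III it was 11 ± 0.15, 22.2 ± 0.586, 42.7 ± 1.15 and 44.2 ± 2.46. Complexes IV and V had smaller ratios in the FK506 groups, at 9.07 ± 0.195, 19.7 ± 0.523, 22.1 ± 1.13 and 23.2 ± 2.47 for complex IV and 10.1 ± 0.733, 20.2 ± 1.55, 16.1 ± 0.84 and 18.4 ± 2.98 for complex V. Control samples lay below every drug-treated sample in all 4 complexes.

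Nuclear genes also supply the factors that copy, process and degrade mitochondrial RNA. Of 54 such genes, 13 rose and 31 fell with FK506, with a median of -0.26, and 8 rose and 18 fell with metformin, with a median of -0.06. Of all genes tested, 41.3% rose and 39.6% fell with FK506 and 28.6% rose and 27.4% fell with metformin, and the counts of the lists that follow stand beside the same shares. The FK506 direction depended on the scaling, with 20 higher and 22 lower by library size alone and 27 higher and 14 lower with TPM. Of the core transcription factors, Polrmt, the RNA polymerase, rose by 0.34 ± 0.062 with FK506 (edgeR adjusted p = 8.18e-05) and was at 0.02 ± 0.063 with metformin (adjusted p = 0.788). Tfb2m, which helps open the promoter, rose by 0.31 ± 0.085 with FK506 (adjusted p = 0.00337) and fell by 0.32 with metformin (adjusted p = 0.00473). Tfam, which packages mitochondrial DNA and starts transcription, was at 11 FPKM in Control, 11.3 with metformin, 11.8 under FK506 and 10.1 with both drugs. Its value with FK506 was -0.12 ± 0.046 (adjusted p = 0.0261) and turned positive with library-size, FPKM or TPM scaling. It was not called by DESeq2 (-0.10), with RLE scaling (-0.10), at a mean FPKM of at least 1 (-0.09), after quantile normalization (-0.08), or without replicate 1 or 3 of Control or replicate 1 or 2 of FK506. With metformin the Tfam value was 0.01 ± 0.046 (adjusted p = 0.858). Tefm, the elongation factor, fell by 0.42 with FK506 (adjusted p = 0.0082), though it was not called with library-size, FPKM or TPM scaling, and was at -0.28 ± 0.13 with metformin (adjusted p = 0.0904), called lower with the groups compared alone (-0.29) or without replicate 3 of Metformin+FK506 (-0.29). Mterf3, a negative regulator of mitochondrial transcription, rose with both drugs given alone, by 0.54 ± 0.056 (adjusted p = 1.33e-07) for FK506 and 0.43 ± 0.056 (6.61e-06) for metformin.

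Of 26 genes for mitochondrial RNA processing, stability and decay, 19 fell and 5 rose with FK506, but 7 fell and 11 rose with TPM scaling. With metformin 11 fell and none rose by edgeR, and none rose at an unadjusted p under 0.05 or by DESeq2, whereas limma on log2(FPKM + 1) called 1 higher. Pnpt1 and Supv3l1 encode the exonuclease and the helicase of the mitochondrial degradosome. Pnpt1 fell by 0.98 with FK506 (edgeR adjusted p = 1.42e-11) and by 0.55 with metformin (8.06e-08). Supv3l1 fell by 0.49 with FK506 (1.47e-05) and by 0.38 with metformin (0.000425), but its FK506 value was -0.07 and was not called with TPM scaling. Slirp, whose product stabilizes mitochondrial messenger RNAs together with LRPPRC, fell by 1.01 with FK506 (5.75e-07) and was at -0.24 ± 0.11 with metformin (0.0907), called lower with the groups compared alone (-0.25) or without replicate 1 or 3 of Metformin+FK506 (-0.24 in each). Lrpprc itself had a value of -0.10 ± 0.043 (0.0439) with FK506 that turned positive with library-size, FPKM or TPM scaling, and it fell by 0.14 with metformin (0.0096). The FK506 value was also not called by DESeq2 (-0.08), with RLE scaling (-0.08), at a mean FPKM of at least 1 (-0.07), after quantile normalization (-0.07), with the groups compared alone (-0.09), with a replicate block (-0.10), or without replicate 2 or 3 of Control, replicate 1 or 2 of FK506, any 1 replicate of Metformin, or replicate 2 of Metformin+FK506. Grsf1, a protein of mitochondrial RNA granules, fell by 0.68 with FK506 (4.28e-10) and by 0.17 with metformin (0.00387; -0.07 and not called after quantile normalization), and Hsd17b10, a subunit of mitochondrial RNase P, fell by 1.28 (1.75e-10). Fastkd3, of the FASTK family of mitochondrial RNA-binding proteins, fell by 1.5 with FK506 (6.65e-11) and by 0.83 with metformin (3.34e-07), and Pde12, which removes poly(A) tails in mitochondria, fell by 0.75 with metformin (1.95e-08). Mtpap, the mitochondrial poly(A) polymerase, fell by 0.31 with FK506 (0.00035), a value that was not called with library-size (-0.09) or FPKM scaling (-0.04) and turned positive with TPM scaling (0.18), and was at -0.06 ± 0.065 with metformin (0.475). Angel2 was among the 5 that rose with FK506, by 0.65 ± 0.038 (9.48e-11).

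**Figure D4:**
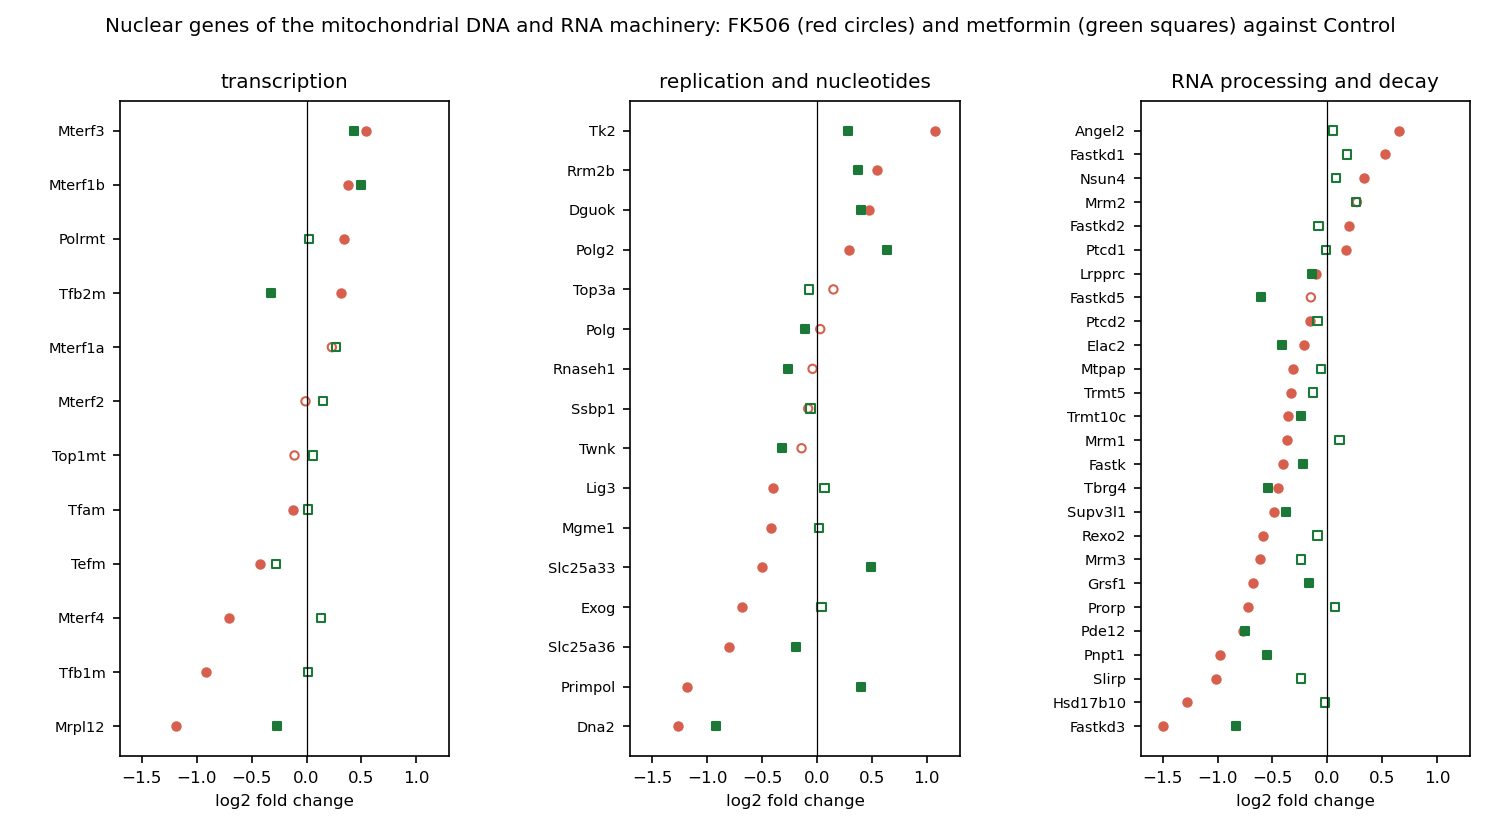
Log2 fold change against Control (horizontal axis) of nuclear genes for mitochondrial transcription, for replication and nucleotide supply, and for RNA processing and decay, sorted by the FK506 value. Red circles are FK506 and green squares metformin, and filled symbols passed the test. Of the 26 genes in the right panel 19 fell with FK506, and with TPM scaling 7 fell and 11 rose.

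Of 16 genes for mitochondrial DNA replication and nucleotide supply, 4 rose and 7 fell with FK506, beside 41.3% and 39.6% of all genes, and 6 rose and 5 fell with metformin, beside 28.6% and 27.4%. With TPM scaling the FK506 counts were 9 higher and 4 lower. Polg, the catalytic subunit of the DNA polymerase, was at 0.03 ± 0.04 with FK506 (edgeR adjusted p = 0.514), where it was called higher with library-size (0.25) and TPM scaling (0.39), and -0.11 ± 0.04 with metformin (0.0225), which was not called with library-size, FPKM, quantile or TPM scaling or without replicate 1 of Control or replicate 1 or 2 of Metformin. Twnk, the replicative helicase, was at -0.14 ± 0.076 with FK506 (0.0908), which was called lower with the groups compared alone (-0.14) and turned positive with library-size, FPKM or TPM scaling, and fell by 0.32 with metformin (0.00221). Tk2, the mitochondrial thymidine kinase, rose by 1.08 ± 0.049 with FK506 (edgeR adjusted p = 3.54e-12). Dna2, a nuclease and helicase, fell by 1.27 with FK506 (1.45e-08), and Polg2, the accessory subunit of the mitochondrial DNA polymerase, rose by 0.64 ± 0.09 with metformin (1.62e-05). With FK506, Mrpl12, a ribosomal protein that also binds POLRMT, fell by 1.19 (4.86e-11), and Tsfm, a mitochondrial translation elongation factor, fell by 1.03 (4.53e-08). Of 42 assembly factors tested, 26 fell and 5 rose with FK506 and 11 fell and 9 rose with metformin, and with TPM scaling the FK506 counts were 11 and 19. Sco1, which delivers copper to COX2, was at 12.8 FPKM in Control, 5.2 with metformin and 2.8 with FK506, a log2 fold change of -2.41 ± 0.06 with FK506 (1.26e-15). Cox20, a chaperone of COX2, rose by 0.97 ± 0.16 with FK506 (3.88e-05).

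Of 8 nuclear regulators of mitochondrial gene expression tested, 3 rose and 3 fell with FK506 (adjusted p-values from edgeR in parentheses). Ppargc1a, the gene of PGC-1 alpha, did not pass the filter. Nrf1, which activates nuclear genes for mitochondrial proteins, had values of 0.14 ± 0.046 with FK506 (0.0133) and -0.12 ± 0.047 with metformin (0.0414), the former turning negative after quantile normalization and not called on FPKM, with no filter, or without Control replicate 1 or FK506 replicate 2. The metformin value was not called with library-size scaling, at a mean FPKM of at least 1, with a replicate block (-0.12), or in 5 of the fits that left out a sample. Gabpa, a factor of the same kind, was at -0.05 ± 0.051 (0.41) and 0.05 ± 0.052 (0.403), the former turning positive with library-size, FPKM or TPM scaling. Myc, a transcription factor of growth and mitochondrial biogenesis, fell by 2.87 with FK506 (9.85e-18) and by 1.32 with metformin (5.31e-13). Pprc1, a coactivator related to PGC-1, fell by 0.84 with FK506 (3.79e-11) and by 0.50 with metformin (1.01e-07). Ppargc1b, the gene of the coactivator PGC-1 beta, rose by 0.92 ± 0.12 with FK506 (3.68e-06) and by 0.56 ± 0.13 with metformin (0.00113) from 0.462 FPKM, close to the filter, and its FK506 value of 0.14 after quantile normalization was not called. In the combination compared with FK506 alone, 6 of the 54 machinery genes rose and 5 fell, beside 15.6% and 15.0% of all genes, and 3 rose and 4 fell in a fit of these groups alone. Rrm2b, a ribonucleotide reductase subunit that supplies mitochondrial DNA synthesis, rose by 0.42 ± 0.053 (1.31e-05), Dna2 fell by 0.67 (0.000301), Nsun4, a mitochondrial rRNA methyltransferase, fell by 0.36 (0.000293), and Tfam fell by 0.20 (0.00361).

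The genes whose levels across the 12 samples were most like the mean of the 10 members were sought among all genes tested outside the mitochondrial genome. Likeness was the root mean square difference of centred log2 CPM (counts scaled to a common library size), in which the members themselves ranged from 0.0896 for ND1 to 0.373 for ATP8. The 5 closest genes were Zfp950 at 0.0749, Plcl2 at 0.0757, Ppm1d, a protein phosphatase, at 0.077, Sp3, a transcription factor, at 0.0784, and Coq10b, a coenzyme Q binding protein of mitochondria, at 0.0794. The FPKM of Sp3 was 23.6 ± 1.66 in Control, 37 ± 0.593 with metformin, 37.5 ± 1.75 under FK506 and 41.4 ± 2.91 with both drugs (SD, n = 3).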

How the data were processed

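RNA of 12 samples was analysed, and groups were taken from the sample labels. Counts, as deposited, were raw whole numbers of reads for each gene. The authors also deposited FPKM (scaled to library size and transcript length) and TPM values (scaled to a fixed sum) for the same samples. The submitters' processing notes name bcl2fastq 2.20.0, Trimmomatic, HISAT2 2.1.0, StringTie 2.1.3b and the build mm10. Counting of multiply mapped reads and use of strand are not given in the sources used here. The sum of FPKM per sample differed between groups, so TPM scales the FK506 libraries differently from counts per library or FPKM.

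Genes that reached 0.5 FPKM in 3 or more samples (15197 of 45777) were tested with edgeR 4.0.16 (TMM, glmQLFit and glmQLFTest, all 4 groups in 1 fit, 8 residual degrees of freedom) in R 4.3.3, at a Benjamini-Hochberg adjusted p under 0.05. Adjusted p-values in the text come from this fit, standard errors were derived from its F statistics, and list counts stand beside the share of all genes in the same comparison. The alternatives were DESeq2 1.42.0, limma 3.58.1 on log2(FPKM + 1) and log2(FPKM + 0.1), quantile normalization, other scalings and filters, the groups compared alone, a replicate block and leaving out each sample. limma on log2(TPM + 1) was added after seeing the data. Scripts were tested on simulated data. All replicate pairs differed by more than sampling noise in a chi-square test of counts, and since nothing says that samples came from separate animals, p-values measure the spread between these samples.

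The members and gene lists were chosen with earlier results of these data known, so they are not independent evidence. Outside the members, named genes were the remaining mitochondrial genes, central factors of transcription, replication, RNA stability and biogenesis, up to 2 rises and 2 falls past the threshold in each list and comparison (of which the text gives a part), and the 5 genes most like the members. Sequences and positions are from the mm10 reference (RefSeq GRCm38.p6 gene positions), in which all 15 mitochondrial genes described were found. Nuclear copies were sought by aligning the genes to GENCODE transcripts.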

Additional observations from a re-analysis of the deposited data

Results flagged for a closer look

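The effect of metformin differed with and without FK506 for several genes tested outside the 10, and for 2 of the 10 the samples lay in opposite directions. Of all genes, 65.0% did not overlap between metformin and Control and 38.6% between Metformin+FK506 and FK506, in either direction. How many of all genes showed opposite directions was not counted. ND4 and CYTB had higher FPKM in every metformin sample than in every Control sample and lower FPKM in every Metformin+FK506 sample than in every FK506 sample, with interaction values of -0.65 and -0.84 on the log2 scale. The fit called the interaction for both. These genes were chosen with the responses known, so the calls are a description and not a test of the difference. In Metformin+FK506 against FK506 the fit called ND4 lower (-0.18) but did not call CYTB (-0.10). ND3 and ND4L showed the same opposite directions in FPKM, with interaction values of -1.26 (edgeR adjusted p = 9.42e-07) and -0.61 (adjusted p = 1.1e-06). Their values in Metformin+FK506 against FK506, -0.24 (edgeR adjusted p = 0.0587) and -0.10 (adjusted p = 0.127), were not called in the main fit.

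The interaction was also called for ND6 at -0.76 (edgeR adjusted p = 6.78e-06), Tfam at -0.21 (adjusted p = 0.0145) and Polg2 at -0.74 (adjusted p = 0.000154). It lay above 0 for Pnpt1 at 0.40 (edgeR adjusted p = 0.000231), Fastkd3 at 0.83 (adjusted p = 3.17e-05), Ndufv3 at 0.90 (adjusted p = 1.67e-09) and Sco1 at 1.49 (adjusted p = 4.93e-10), genes that fell with either drug alone. Across all genes tested, 46.5% were called for this interaction.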

How the results depend on the processing

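The median log2 fold change over all genes with FK506, 0.02 in the main analysis, was 0.25 with library size alone, 0.19 on log2(FPKM + 1) and 0.42 with TPM, and the share of calls that were higher reached 62% with library size alone and 71.2% with TPM. For the 10 genes the median with FK506 was 0.79 with library size alone, 0.78 on FPKM with either pseudocount, 1.37 after quantile normalization and 1.02 with TPM. For both drugs against Control it was 0.89, 0.86, 1.49 and 1.13, and against metformin 0.12, 0.09, 1.03 and 0.42. After quantile normalization the metformin median was 0.55 and the interaction median -0.49. Against metformin, COX1, COX2 and COX3 reversed to 0.61, 0.81 and 0.85 after quantile normalization and to 0.13, 0.17 and 0.11 with TPM, ATP8 and ATP6 reversed to 0.59 and 0.23 after quantile normalization, and the interaction of COX1 was 0.00 there. With FK506, Tfam turned to 0.10, 0.09, 0.10 and 0.32, and Lrpprc to 0.12, 0.10, 0.10 and 0.33, with library size alone, log2(FPKM + 1), log2(FPKM + 0.1) and TPM. With metformin, Tfam was at -0.00 with no filter and -0.01 with TPM, and between -0.02 and 0.03 leaving out each sample. With FK506, Twnk turned to 0.08, 0.16, 0.18 and 0.39 and Gabpa to 0.18, 0.16, 0.17 and 0.40 with library size alone, either FPKM pseudocount and TPM, Polg to -0.00 with no filter, Mtpap to 0.18 with TPM and Nrf1 to -0.08 after quantile normalization. Leaving out each sample, the metformin values lay between -0.01 and 0.05 for Polrmt and -0.00 and 0.10 for Gabpa. The cause of these changes was not tested. Without a filter on low values, 2 of the 10 genes were called lower with FK506, and 1 with the groups compared alone.

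Between both drugs and FK506, the machinery genes called numbered 11, and 7 with the groups compared alone. The nuclear subunits called numbered 12, but 20 on FPKM with either pseudocount and 7 with the groups compared alone. After quantile normalization 28 nuclear subunits were called with metformin, 11 higher and 17 lower against 6 and 45 before. As a percent of summed FPKM the 10 genes took 2.96, 4.77, 5.24 and 5.8 in Control, metformin, FK506 and both drugs. Leaving out each sample gave a median of 0.01 to 0.14 for both drugs against FK506, with the lowest value without replicate 2 of Metformin+FK506, 7 to 12 machinery genes (7 without FK506 replicate 1) and 9 to 19 nuclear subunits (19 without Metformin+FK506 replicate 3). ND3 in both drugs against Control was not called without a filter, nor without Control replicate 1 or 2 or Metformin+FK506 replicate 2 or 3.

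Samples with the same replicate number did not deviate together: over 18 such pairs correlations ran from -0.0688 to 0.0484. With a replicate block the medians against Control were 0.57 for FK506, 0.71 for metformin and 0.67 for both drugs, and the number of the 10 genes called was the same in each comparison. The block ended the calls of Lrpprc with FK506 (-0.10) and Nrf1 with metformin (-0.12), and ND6 was called higher between both drugs and metformin (0.14), as it was in the other settings named beside its value. With counts of at least 12326 for each of the 10 genes depth limits little, whereas 3 samples per group limit the estimate of the spread.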
